A study of Mus musculus with 6 samples.

Results

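Long noncoding RNA (lncRNA) genes make transcripts that are not translated, and 6885 of them, out of 55413 annotated mouse genes, were examined here at their promoters. The members were the genes that GENCODE vM21 classes as lincRNA (5226 genes) or antisense (1659 genes), names for genes that mostly lie between others and genes that mostly run against another, with at least 1 transcription start site (TSS) 5000 bp or more from every protein-coding TSS. They were drawn from 8813 genes of both classes. The promoter of a member was the window of 1000 bp either side of each kept TSS, 9355 windows in all. ATAC-seq, which cuts accessible DNA with a transposase and sequences the pieces, had been applied to skeletal stem and progenitor cells (SSPCs) of C57BL/6 mice, cultured from the marrow of tibiae and femora and used at passage 1. There were 3 libraries from young and 3 from middle-aged mice, and none had been treated. The ages are stated in the study's methods rather than in the labels, which do not say how many mice stand behind a library, so p-values measure the spread between libraries, which may be technical. A promoter was called where a peak of the library's list overlapped its window, and its rank was the percentile of its best peak among all peaks of that list by −log10 q, with 100 at the top.

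Active promoters are usually held free of nucleosomes, so an ATAC-seq peak at a TSS marks a promoter that is open but does not measure its RNA. Many lncRNA genes are transcribed in few cell types, and some act in the nucleus, such as Malat1 in nuclear speckles, Neat1 as the scaffold of paraspeckles and Xist on the inactive X chromosome. Others serve as host transcripts from which microRNAs (miRNAs) or small nucleolar RNAs (snoRNAs) are cut. Promoters rich in CpG dinucleotides are often open in every cell type, whereas regions poor in CpG tend to open in particular ones.

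Sequences differed widely in CpG content among the promoters described below, and 5 stretches of 200 bases around the highest summit show this, with every CpG dinucleotide in capitals. They are printed 5′ to 3′ on the strand of the gene, from RefSeq build GRCm38.p6, which holds the same chromosomes as mm10. 1700096K18Rik was among the best-ranked promoters of every library (chr5:25529576-25529775, plus strand, 12 CpGs), and 6720427I07Rik contains let-7 miRNA genes (chr13:48546569-48546768, minus strand, 21 CpGs). Gm17382 (chr17:26886150-26886349, minus strand, 15 CpGs), Dnm3os (chr1:162217531-162217730, plus strand, 5 CpGs) and Gm47230 (chr9:44579598-44579797, plus strand, 1 CpG) ranked higher in every middle-aged than in every young list.
1700096K18Rik: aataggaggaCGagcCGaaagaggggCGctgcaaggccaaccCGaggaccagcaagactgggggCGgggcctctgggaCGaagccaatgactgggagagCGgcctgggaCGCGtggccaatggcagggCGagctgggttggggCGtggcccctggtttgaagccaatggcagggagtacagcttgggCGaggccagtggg
6720427I07Rik: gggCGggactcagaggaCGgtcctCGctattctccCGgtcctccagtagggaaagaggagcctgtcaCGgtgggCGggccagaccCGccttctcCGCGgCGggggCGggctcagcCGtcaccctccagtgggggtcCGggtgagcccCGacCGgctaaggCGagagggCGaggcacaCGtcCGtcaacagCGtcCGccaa
Gm17382: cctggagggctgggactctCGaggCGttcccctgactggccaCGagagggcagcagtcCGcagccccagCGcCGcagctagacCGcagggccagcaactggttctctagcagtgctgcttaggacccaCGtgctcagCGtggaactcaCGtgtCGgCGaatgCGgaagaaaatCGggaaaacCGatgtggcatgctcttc
Dnm3os: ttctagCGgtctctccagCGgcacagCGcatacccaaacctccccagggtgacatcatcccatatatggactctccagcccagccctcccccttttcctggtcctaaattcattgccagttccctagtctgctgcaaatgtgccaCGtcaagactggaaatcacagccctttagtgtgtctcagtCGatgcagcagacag
Gm47230: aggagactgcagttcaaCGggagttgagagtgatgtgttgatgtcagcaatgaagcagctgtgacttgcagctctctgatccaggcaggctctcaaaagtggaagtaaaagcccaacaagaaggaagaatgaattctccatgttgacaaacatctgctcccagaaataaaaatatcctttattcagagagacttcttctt

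A further 3 promoters are shown over 300 bases because they carry short motifs known from myeloid and stimulated cells. The capitals mark matches on either strand to TGANTCA, the site of AP-1 factors, and to GAGGAAGT, a site of the PU.1 type of ETS factor. Gm26979 (chr1:137921641-137921940, minus strand) held 1 match of each and ranked lower in every middle-aged list. Gm45096 (chr7:35065964-35066263, minus strand) held 1 match to the PU.1-type motif and also ranked lower. Mirt1 (chr19:53464657-53464956, minus strand) held 1 match of each and did not separate the ages. A match is only a run of letters and was not measured as a binding site.
Gm26979: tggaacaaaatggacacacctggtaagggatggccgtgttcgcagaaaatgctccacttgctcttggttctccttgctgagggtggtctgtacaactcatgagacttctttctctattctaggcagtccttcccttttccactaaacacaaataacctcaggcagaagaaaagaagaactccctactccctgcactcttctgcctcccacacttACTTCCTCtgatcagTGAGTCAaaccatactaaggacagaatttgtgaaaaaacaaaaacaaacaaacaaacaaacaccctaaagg
Gm45096: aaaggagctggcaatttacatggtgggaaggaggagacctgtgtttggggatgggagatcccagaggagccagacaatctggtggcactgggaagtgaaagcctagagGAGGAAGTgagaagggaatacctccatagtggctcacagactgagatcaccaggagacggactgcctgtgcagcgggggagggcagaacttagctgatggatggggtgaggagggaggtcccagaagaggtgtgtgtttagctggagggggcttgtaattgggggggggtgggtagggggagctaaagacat
Mirt1: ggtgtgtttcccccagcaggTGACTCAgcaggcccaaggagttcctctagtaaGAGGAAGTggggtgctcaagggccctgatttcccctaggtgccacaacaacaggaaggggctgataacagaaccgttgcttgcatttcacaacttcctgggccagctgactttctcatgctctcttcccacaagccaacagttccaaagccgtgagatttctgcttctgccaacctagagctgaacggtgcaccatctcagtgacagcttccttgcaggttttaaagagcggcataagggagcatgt

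The lists held between 27628 peaks in young 3 and 48344 in middle-aged 3, and relative depth, given as the mean number of extended reads per base, ran from 1.65 in young 3 to 3.75 in young 1. Young 3 was thus both the shallowest library and the shortest list. The label of the cells was checked at the promoters of protein-coding markers. Of 8 SSPC markers, between 2 and 6 were called per library and 2 in all 6, while Lepr and Adipoq were called in none. Of 8 mesenchymal and osteogenic markers, between 2 and 6 were called per library, and Prrx1 and Sp7 in none. Of 8 hematopoietic markers, between 7 and 8 were called in every library and 7 in all 6, and of 5 endothelial markers between 2 and 4. The promoters of blood cell genes were therefore open in libraries of both ages, and their part in the results below was not tested. Accessibility of a mixed sample does not tell fewer cells with an open promoter from a less open promoter in each cell.

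The first question was how many lncRNA promoters were accessible at each age. In young 1, 2 and 3, 584, 701 and 464 of the 6885 lncRNA genes had a promoter peak, or 8.48%, 10.2% and 6.74%. In middle-aged 1, 2 and 3, 750, 753 and 780 genes had one, or 10.9%, 10.9% and 11.3%. Every middle-aged library was above every young one. Young libraries averaged 8.47% (SD 1.72, n = 3) and middle-aged libraries 11.1% (SD 0.240, n = 3). The difference was 2.59 percentage points (two-sided exact permutation p = 0.1, which is the lowest value 3 against 3 libraries can reach), and 1.72 without young 3. Of protein-coding genes, 53.6% had a promoter peak on average in young and 57.6% in middle-aged libraries, a ratio of 1.07 against 1.31 at lncRNA genes. In percentage points the change at lncRNA genes was smaller than at protein-coding genes by 1.43, and the test did not separate the changes (two-sided exact permutation p = 0.3).

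The lists of middle-aged libraries were also longer, by a ratio of 1.32. The young lists held 640, 777 and 504 peaks at lncRNA promoters, and the middle-aged lists 827, 826 and 869, in replicate order. As a share of the list they made up between 1.77% and 1.82% in the 6 libraries, so the share of accessible regions that lay at lncRNA promoters was nearly constant across ages and depths. When each list was limited to its best 27628 peaks, the ratio of middle-aged to young shares of lncRNA genes called was 1.05 in place of 1.31. Of the peaks outside protein-coding promoters, those at lncRNA promoters averaged 2.88% in young libraries (SD 0.293, n = 3) and 2.58% in middle-aged libraries (SD 0.0143, n = 3), without overlap (two-sided exact permutation p = 0.1).

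**Figure D1:**
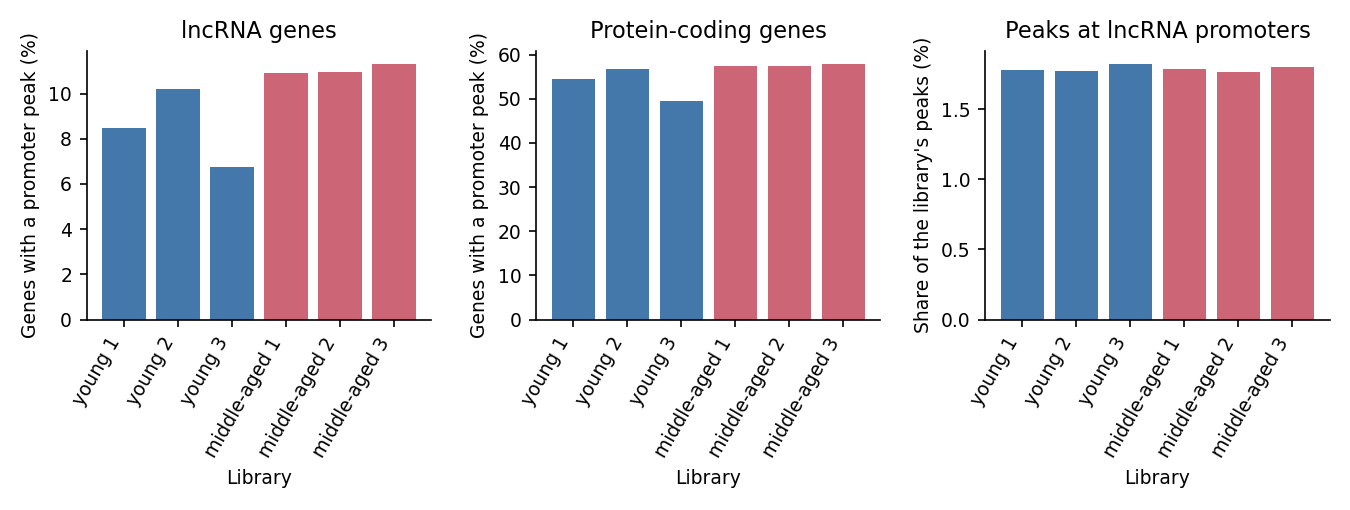
Bars give, for each library (young in blue, middle-aged in red), the percent of lncRNA genes and of protein-coding genes with a promoter peak and the percent of the library's peaks that lay at lncRNA promoters. The 3 middle-aged libraries, from 10.9% to 11.3%, lie above the young ones in the first panel, while the last panel stays between 1.77% and 1.82%.

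Accessible chromatin was denser at lncRNA promoters than elsewhere outside coding promoters. The windows covered 15.2 Mb, or 0.559% of the genome, and held on average 48.6 peaks per Mb, against 9.87 per Mb of genome for peaks that lay at neither kind of promoter. The ratio of these densities was between 4.70 and 5.91 in the 6 libraries. A peak counted for a window if any part of it overlapped, and the second density was taken over the whole genome, promoters included. Both choices raise the ratio. Compared with protein-coding genes, lncRNA genes were called far less often in each of the 6 libraries, by 45.9 percentage points on average (two-sided exact sign permutation p = 0.031, the lowest value 6 libraries can reach). A gene was called and ranked over all its windows, 9355 for 6885 lncRNA genes and 54361 for 21853 protein-coding genes. The larger number of windows per protein-coding gene was not adjusted for in these values. Where a lncRNA promoter was called, its median rank averaged 52.8 in young libraries (SD 0.623, n = 3) and 54.2 in middle-aged libraries (SD 0.851, n = 3), which did not separate the ages (two-sided exact permutation p = 0.2). The median lay 29.1 points below that of called protein-coding promoters, in the same direction in 6 of 6 libraries (exact sign permutation test, two-sided p = 0.031). Over single peaks, the median rank at lncRNA promoters lay 10.7 ± 1.14 points above that of peaks away from promoters (SD, n = 6, exact sign permutation test, two-sided p = 0.031).

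Recurrence over libraries was lower for lncRNA promoters. A peak was called in no library for 5900 genes, in 1 library for 186, in 2 for 104, in 3 for 72, in 4 for 91, in 5 for 134 and in all 6 for 398. The 398 recurrent genes were 5.78% of the members, where 48.4% of the 21853 protein-coding genes were called in all 6 libraries. Of the 985 lncRNA genes called anywhere, 40.4% were called in every library, against 78.6% of protein-coding genes. These shares were not adjusted for the number of windows per gene. Of members with 1 kept TSS 4.42% were called in all 6 libraries, and of those with 2 or more 10.7%. Young 3 was the library most often missing, since 94 of the 134 genes called in 5 libraries lacked only that one, and 492 genes were called in all of the other 5. The 398 genes were 301 lincRNA and 97 antisense genes, and 20 of them shared a peak region with another member, so that 388 separate regions stood behind them. In 34 of the 398 the best peak of some library did not overlap that of the library where the gene ranked highest, so that the ranks compare neighbouring peaks of 1 promoter.

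**Figure D2:**
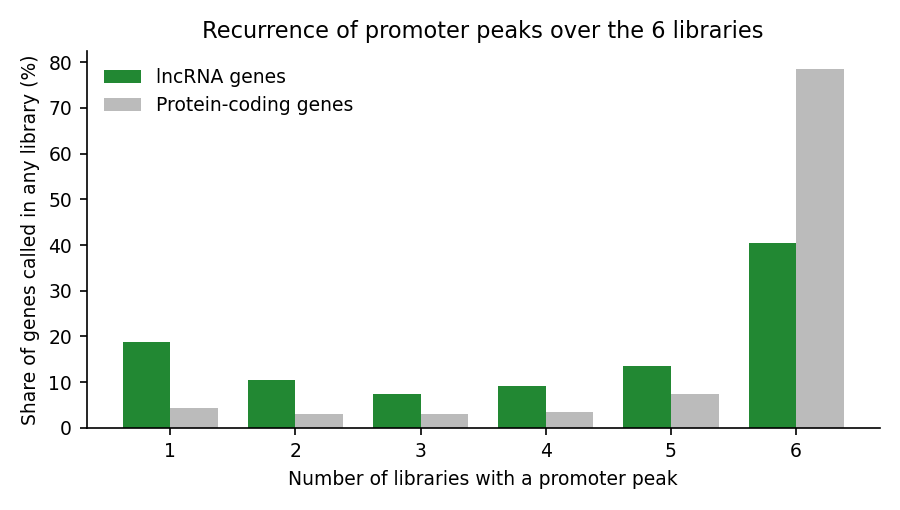
Bars give the percent of genes by the number of libraries with a promoter peak, among the 985 lncRNA genes (green) and 13447 protein-coding genes (grey) called in at least 1 library. In all 6 libraries lie 40.4% of the lncRNA genes and 78.6% of the protein-coding genes.

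The lincRNA and antisense classes were called at nearly the same rate, 9.71% and 9.93% of genes on average, a difference (lincRNA minus antisense) of −0.218 percentage points (exact sign permutation test, two-sided p = 0.15625). Its direction turned when chromosomes X and Y were left out. On chromosome Y 1 of 549 members was ever called, and 548 of these genes were lincRNAs. Without both chromosomes, lincRNA genes were called more often by 0.964 percentage points in 6 of 6 libraries (exact sign permutation test, two-sided p = 0.031). On autosomes 390 of 6219 members were called in all libraries, and on chromosome X 8 of 117.

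CpG-rich start sites were more common among recurrent promoters than in the rest of the class. A start site was counted as CpG-rich where the 500 bases around it had a GC content of at least 50% and at least 0.6 of the CpGs that this content predicts. Of members called in all 6 libraries 24.4% were CpG-rich, of those called in 1 to 5 libraries 6.30%, and of those never called 1.75%. For protein-coding genes, each taken at its 5′-most TSS, the shares were 78.5%, 50.6% and 9.78%. A called member was instead scored at the kept TSS nearest its best summit, and a member never called at its 5′-most kept TSS. The shares of called members thus rest on start sites chosen by the peak and are not fully comparable with the others. Of the 237 CpG-rich members, 40.9% were called in all 6 libraries, against 4.53% of the 6648 others. Among recurrent promoters, the median of the mean ranks was 82.3 for CpG-rich and 64.7 for other members. These shares describe the annotation and the lists and carry no test, since neighbouring genes are not replicates.

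**Figure D3:**
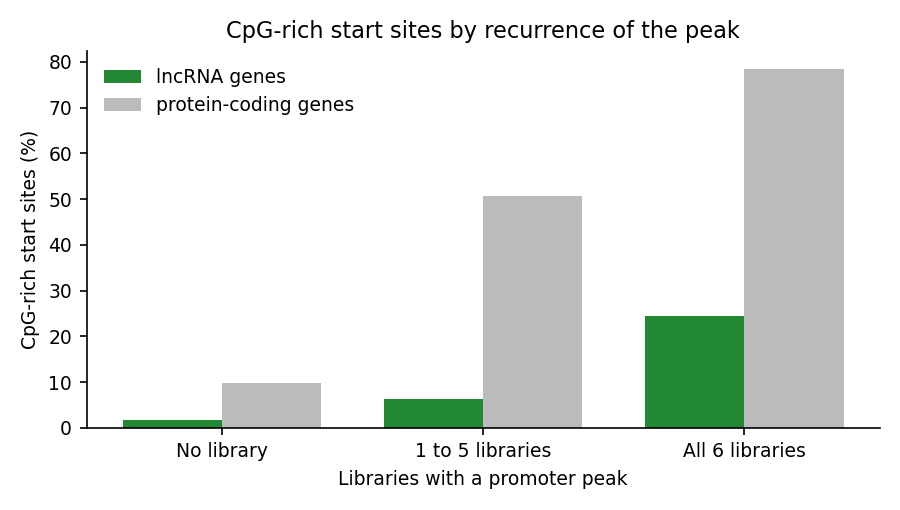
Bars give the percent of start sites that were CpG-rich among lncRNA genes (green) and protein-coding genes (grey) with a promoter peak in no library, in 1 to 5 and in all 6. The share is highest in the last group in both classes, and for lncRNA genes it is 1.75%, 6.30% and 24.4%.

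In the share holding each of 4 short motifs, given without a test, the recurrent lncRNA promoters lay between protein-coding promoters and other accessible regions. Within 300 bases around the summit, the AP-1 motif TGANTCA lay in 19.6% of the 388 lncRNA regions, in 4.69% of 10593 coding promoter regions and in 25.7% of 11705 other regions called in all libraries. The GC box, GGGCGG, bound by Sp1 and its relatives, lay in 30.9%, 72.2% and 12.1%. The PU.1-type motif lay in 13.1%, 3.72% and 14.4%, and the RUNX motif TGTGGTT in 7.73%, 3.26% and 13.8%. Among the 40 lncRNA regions with the highest mean rank, 70.0% held a GC box and 10.0% the AP-1 motif. All motifs were searched on both strands, and a GC-rich sequence holds a GC box more often by its composition alone.

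Recurrence also varied with position. Of members 10 to 50 kb from the nearest coding TSS, 8.07% were called in all 6 libraries, and of those more than 500 kb away 1.26%. Just inside the distance limit, 10 of 166 windows 5 to 6 kb from a coding TSS were called in all libraries, and just outside it, at 4 to 5 kb, 13 of 187. The summit lay within 100 bp of a kept TSS in 31.4% of recurrent genes and at a median distance of 182 bp, against 362 bp for genes called in 1 to 5 libraries. An mRNA start site of RefSeq lay within 1000 bp of 12 of the 398 genes. By the median over 32-base words around the summit, 9 of the 398 genes lay in sequence with more than 1 copy in the genome assembly, and none of the 10 best-ranked genes did.

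The 10 genes with the highest mean rank were 4932412D23Rik, D730045B01Rik, 1700096K18Rik, Gm26901, Gm37494, Gm6410, Gm10010, 6720427I07Rik, Gm15287 and Gm5444, of which 9 are lincRNA genes and 8 are CpG-rich. At Gm37494 an mRNA start of RefSeq lies 2 bp from a kept TSS, so its peak cannot be assigned to the lncRNA alone. Their ranks lay between 97.2 and 99.97 in every library, a range that the choice by mean rank limits, while their summits stood between 36.0 and 157 times the genome-wide background. At 4932412D23Rik, 32058 bp from the TSS of Zbtb20 on chromosome 16, the ranks were 99.92, 99.78 and 99.97 in the young libraries and 99.83, 99.90 and 99.64 in the middle-aged libraries. Its summit stood between 88.0 times the genome-wide background in young 1 and 157 times in middle-aged 2. At Gm5444 on chromosome 13, which is poor in CpG, the ranks were 97.6, 98.1 and 98.0 in the young libraries and 98.1, 97.8 and 97.8 in the middle-aged libraries. Over all 398 genes the mean rank had a median of 69.5 and ran from 13.5 to 99.8, and 55 genes had a mean rank over 90.

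Among lncRNAs of the nucleus and of X inactivation, 6 of 10 listed genes were members, of which 4 were called in every library, where 5.78% of all members were. Malat1, the abundant speckle RNA, had ranks of 73.9, 78.4 and 55.0 in the young libraries and of 83.2, 78.6 and 70.6 in the middle-aged libraries. Neat1 had ranks of 44.7, 65.3 and 61.5 in the young libraries and of 74.3, 70.7 and 51.5 in the middle-aged libraries. The ages overlapped at both genes. At Neat1 the ranks of young 1 and middle-aged 3 came from another peak than those of the other 4 libraries. The summit in the best-ranked library lay 970 bp upstream of a kept start site at Malat1 and 1211 bp at Neat1. The Neat1 summit thus lay outside the window of 1000 bp that its peak overlapped. Jpx, which activates Xist, had ranks of 68.3, 62.4 and 70.3 in the young libraries and of 84.0, 76.6 and 78.0 in the middle-aged libraries, which did not overlap in the own list but did among shared genes. Ftx, another gene of the X inactivation centre, ranked between 78.4 and 88.0 in young and between 88.7 and 90.1 in middle-aged libraries, with a difference of −1.25 among shared genes, where the ages overlapped. In the own list 30.1% of all genes called in every library were higher without overlap. Xist and its antisense partner Tsix had no peak in any library.

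Among imprinted lncRNAs, 5 of 10 listed genes were members and 2 were called in every library, where 5.78% of all members were. Kcnq1ot1, the paternally expressed antisense transcript that starts in an intron of Kcnq1, had ranks of 80.4, 87.8 and 86.3 in the young libraries and of 87.3, 90.8 and 91.6 in the middle-aged libraries. Airn, which starts inside Igf2r against it, had ranks of 57.4, 48.8 and 60.8 in the young libraries and of 66.8, 38.9 and 70.9 in the middle-aged libraries. Libraries of both ages overlapped at these genes. H19, Meg3 and Mirg, which are expressed from the maternal chromosome, had no peak in any library.

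Among lncRNAs of growth control and the p53 response, 5 of 17 listed genes were members. Of these, 3 were called in every library, where 5.78% of all members were. Trp53cor1, known as lincRNA-p21 and lying 11800 bp from the TSS of the cell cycle inhibitor Cdkn1a, had ranks of 77.1, 79.7 and 85.7 in the young libraries and of 73.2, 79.8 and 83.2 in the middle-aged libraries. Lncpint, a p53 target, had ranks of 64.4, 79.7 and 47.2 in the young libraries and of 81.3, 79.2 and 82.2 in the middle-aged libraries. Epb41l4aos ranked between 83.8 and 93.3 in the 6 libraries. Pvt1, the neighbour of Myc, and the snoRNA host Snhg12 were called in 5 libraries, all but young 3.

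Among lncRNAs of limb and mesenchyme development, 8 of 23 listed genes were members and 2 were called in every library, where 5.78% of all members were. Dnm3os, which is needed for normal skeletal growth in mice and contains the genes of miR-199a-2 and miR-214, had ranks of 36.8, 31.7 and 10.6 in the young libraries and of 60.6, 52.3 and 62.4 in the middle-aged libraries. All middle-aged ranks lay above all young ranks in the own list, but not among shared genes, with an own-list difference of 32.1 (SE 7.71, limma, adjusted p = 0.267). Its summit stood at 6.40, 6.71 and 7.29 times the genome-wide background in the young libraries and at 11.4, 9.57 and 11.8 times it in the middle-aged libraries. Against the median of all genes called in every library, this was a log2 difference of 0.20 (limma, adjusted p = 0.786). Carmn, a lncRNA of smooth muscle and heart, had ranks of 55.6, 62.8 and 28.1 in the young libraries and of 66.5, 79.0 and 76.2 in the middle-aged libraries, with that of young 3 from another peak. Bvht was called in 5 libraries, Rmst and Tbx3os1 in 1 middle-aged library each, and Hotair, Miat and Pantr1 in none.

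Among lncRNAs listed for blood and immune cells, 6 of 15 genes were members and 5 were called in every library, where 5.78% of all members were. Of the 263 members whose symbol is not an accession or clone name, 12.2% were. In the nuclear and growth lists, 4 of 6 and 3 of 5 members were. The lists were chosen with earlier results of these data known, so these counts do not tell which cells the libraries held. The hematopoietic marker promoters, called in all 6 libraries at 7 of 8 genes, stand beside 48.4% of all protein-coding genes. Mir17hg, the host of the miR-17-92 cluster, had ranks of 97.5, 95.3 and 89.6 in the young libraries and of 96.3, 96.5 and 96.8 in the middle-aged libraries. Ptgs2os2, an inflammatory lncRNA next to the cyclooxygenase gene Ptgs2, had ranks of 87.7, 90.9 and 82.2 in the young libraries and of 87.3, 87.0 and 84.1 in the middle-aged libraries. Mir155hg, the host of miR-155, had ranks of 57.7, 39.3 and 28.7 in the young libraries and of 56.8, 58.6 and 43.0 in the middle-aged libraries, with those of young 2 and middle-aged 3 from another peak. Mirt1 ranked between 23.9 and 63.3, Gm26740 between 49.9 and 68.0, and Gm12840 had no peak. The ages overlapped at each of the 5 genes.

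Of 72 miRNA hosts 20.8% were called in all 6 libraries and of 35 genes that host only snoRNAs 14.3%, against 5.58% of the 6778 other members, given as a description with no test. Of these 20 recurrent hosts, 12 were CpG-rich, and their mean ranks ran from 37.1 to 98.4. The 5 with the highest mean rank were 6720427I07Rik, Gm20732 with Mir30d, Mir17hg, Snhg6 and 9430037G07Rik. 6720427I07Rik had ranks of 97.8, 98.2 and 97.2 in the young libraries and of 99.2, 99.0 and 99.1 in the middle-aged libraries. The ages did not overlap in the own list, with a difference of 1.34 (SE 0.862, limma, adjusted p = 0.421). Of the 20 recurrent hosts 7 were higher there without overlap, where 30.1% of all genes called in every library were. F630028O10Rik, the host of the myeloid miRNA miR-223, was named after its values were seen. Its ranks were 70.9, 77.4 and 22.7 in the young libraries and 70.7, 68.2 and 65.7 in the middle-aged libraries, so that young 3 alone stood low. Of 26 miRNA genes inside these hosts, 22 were matched to RefSeq by symbol, and mature sequences from hosts described here are printed with the seed, bases 2 to 8, in capitals. The 3 let-7 sequences lie in 6720427I07Rik and share 1 seed, as do miR-17-5p and miR-20a-5p in Mir17hg. Those of Dnm3os have different seeds, and the last 2 belong to Mir155hg and F630028O10Rik.
let-7a-5p: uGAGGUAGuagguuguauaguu
let-7f-5p: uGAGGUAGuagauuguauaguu
let-7d-5p: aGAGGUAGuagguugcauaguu
miR-17-5p: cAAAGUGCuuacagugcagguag
miR-20a-5p: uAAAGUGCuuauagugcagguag
miR-199a-3p: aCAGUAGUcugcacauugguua
miR-214-3p: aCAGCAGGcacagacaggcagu
miR-155-5p: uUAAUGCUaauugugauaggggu
miR-223-3p: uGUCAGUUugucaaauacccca

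**Figure D4:**
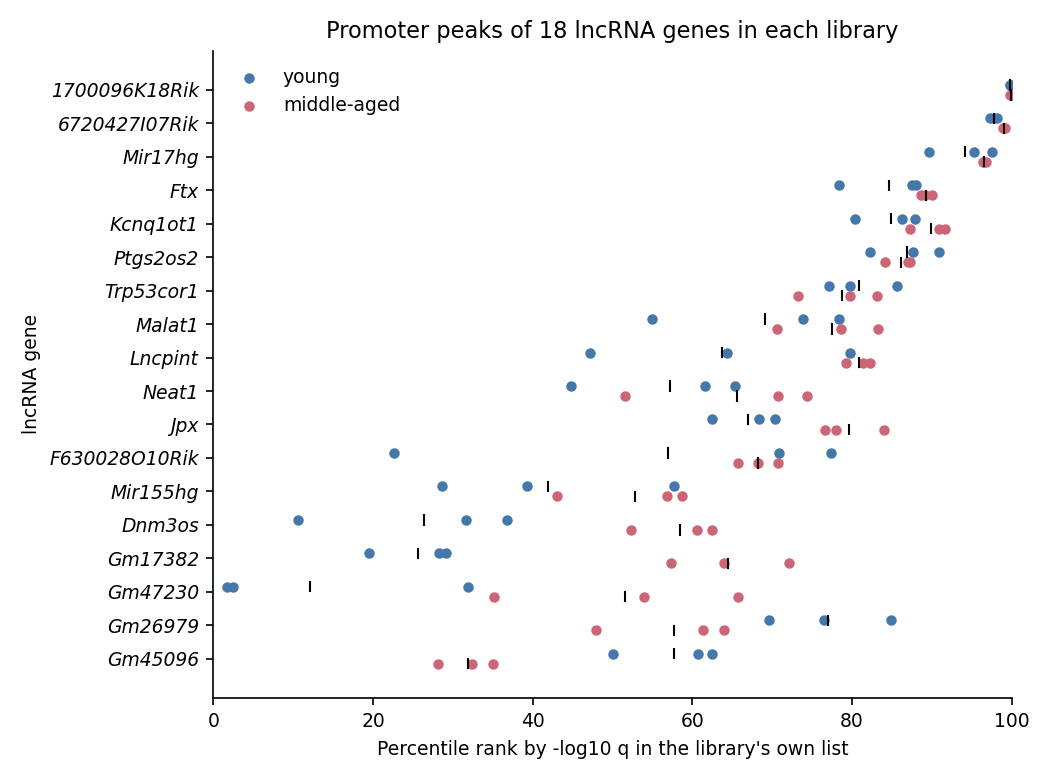
Points give the percentile rank of the promoter peak of 18 lncRNA genes in each library's own list (young in blue, middle-aged in red), and black ticks give the means of 3 libraries. At Dnm3os, Gm17382 and Gm47230 all middle-aged points lie to the right, and at Gm26979 and Gm45096 to the left.

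The second question was whether single lncRNA promoters changed with age. In every middle-aged and no young library, 25 lncRNA genes had a peak, or 0.363% of members, against 0.476% of protein-coding genes. In every young and no middle-aged library, 0 lncRNA genes had one, against 0.00458% of protein-coding genes. Over the genes called in at least 1 library, the first shares were 2.54% of 985 lncRNA genes and 0.773% of 13447 protein-coding genes, so that the order depended on the denominator. The 25 genes were 19 lincRNA and 6 antisense genes, none of them CpG-rich, with mean ranks in middle-aged libraries between 9.63 and 53.2. The best-ranked were Gm38534, 2900057B20Rik, Gm26628, Gm28382 and Gm16195. At Gm38534, which starts 40690 bp from the TSS of Ccdc182 on chromosome 11, the ranks were 52.7, 51.1 and 55.8. With equally long lists the counts were 8 and 5. Leaving out 1 library loosens the criterion and gave 41 without young 1, 60 without young 2, 45 without middle-aged 1, 49 without middle-aged 2 and between 32 and 37 without each of the others. Genes limited to young libraries then numbered 5 without young 3 and 0 or 1 without each of the others. Shares of protein-coding genes were not taken with equally long lists or a library left out. The counts in those settings are therefore not read as a result about lncRNA promoters.

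Among the 398 recurrent promoters, 84 ranked higher in every middle-aged than in every young list, or 21.1%, while 30.1% of all 13025 genes called in every library did. Lower in every middle-aged list were 6 promoters, or 1.51%, against 0.322%. Both shares count genes and not separate peaks. The 6 include Gm26917 and Gm42418, which shared 1 peak, described below, so that peak was counted for both genes. AY036118, another of the 6, overlaps Gm42418 in RefSeq. Without young 2 the first count was 174, or 43.4% against 57.8% of all genes. The second was 10 without young 1, or 2.35% against 1.00%, and 24 without young 3, or 4.88% against 2.39%. A percentile rank in the own list depends on how many weaker peaks that list holds. When genes were instead ranked among the 13025 shared genes only, 11 lncRNA promoters were higher without overlap, or 2.76% against 5.97% of all genes, and 53 were lower, or 13.3% against 6.22%. The direction of the class therefore turned with the scale. In the own list the median rank of the 398 promoters was 66.5 in young and 74.7 in middle-aged libraries, and among shared genes it averaged 26.4 in young libraries (SD 2.61, n = 3) and 22.1 in middle-aged libraries (SD 0.942, n = 3). The ages did not overlap on either scale (two-sided exact permutation p = 0.1). The median difference of single promoters was 6.07 in the own list, where that of all genes was 5.02, and −2.39 among shared genes, where that of all genes was 0.0026.

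No single lncRNA promoter passed the test over all genes. By limma on the ranks, 0 of 398 had an adjusted p under 0.05, while of all 13025 genes 0.00768% were called higher and 0.0% lower. An unadjusted p under 0.05 was found at 55 of the 398, or 13.8%, and at 15.2% of all genes. The largest differences without overlap in the own list were at Gm47230, Gm17382, Gm47710, 1700054K19Rik and AC127693.1, between 33.1 and 39.5. Gm17382, a CpG-rich promoter on chromosome 17, had ranks of 19.5, 29.2 and 28.3 in the young libraries and of 57.4, 64.0 and 72.1 in the middle-aged libraries, a difference of 38.8 (SE 4.77, limma, adjusted p = 0.163). The young 2 rank came from another peak of the promoter, at chr17:26885019-26885244. Gm47230, which starts 17750 bp from the TSS of the chemokine receptor gene Cxcr5 on chromosome 9, had ranks of 1.75, 2.47 and 31.9 in the young libraries and of 65.7, 35.2 and 53.9 in the middle-aged libraries. Among shared genes the differences of these 5 genes were between 3.02 and 13.0, the former at Gm47230, and only Gm47710 and 1700054K19Rik of the 5 still separated the ages.

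In the other direction, Gm45096, which starts 10160 bp from the TSS of the transcription factor gene Cebpg on chromosome 7, had ranks of 62.5, 50.03 and 60.7 in the young libraries and of 32.4, 28.2 and 35.0 in the middle-aged libraries. The difference was −25.9 (SE 3.98, limma, adjusted p = 0.220) in the own list and −17.5 among shared genes. Gm26979, whose nearest coding TSS is that of Ptprc, the gene of the leukocyte antigen CD45, at 253922 bp, had ranks of 69.6, 76.5 and 84.9 in the young libraries and of 64.0, 61.3 and 47.9 in the middle-aged libraries. AC108409.1 on chromosome 19 had ranks of 49.7, 34.5 and 46.9 in the young libraries and of 31.9, 33.9 and 20.6 in the middle-aged libraries. Gm26917 and Gm42418 shared 1 peak, with a difference of −2.97. At Gm42418 the summit of that peak lay outside the window of 1000 bp that the peak overlapped. The summit stood between 204 times the genome-wide background in middle-aged 2 and 273 times in middle-aged 3. The 10 best-ranked promoters reached at most 157 times. RefSeq lists Gm42418 as Rn18s-rs5, a pseudogene of the 18S ribosomal RNA. Words of 32 bases around the summit occurred once in the assembly, so 100% were unique there, but reads from ribosomal repeats were not examined and the value is uncertain. The differences of all 5 genes were negative on both scales.

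**Figure D5:**
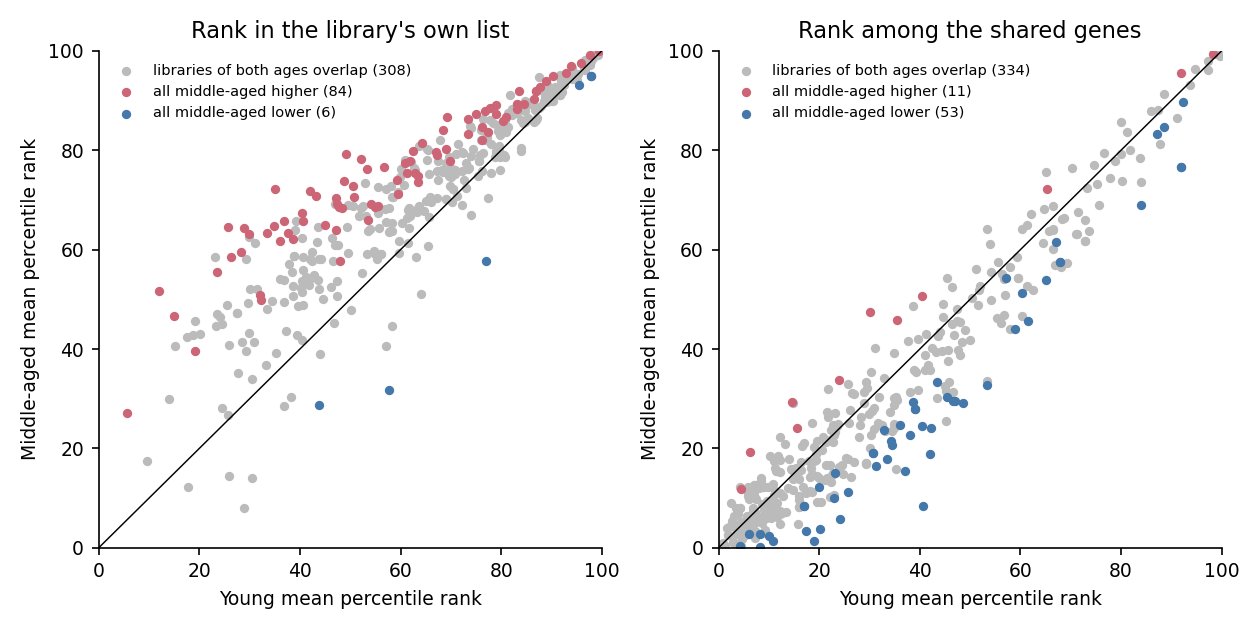
Each point is 1 of the 398 lncRNA promoters called in all 6 libraries, with its mean percentile rank in young (x axis) and middle-aged libraries (y axis), by rank in the library's own list (left) and among the 13025 shared genes (right). Red points (84 left, 11 right) were higher and blue points (6 left, 53 right) lower in every middle-aged library, and the diagonal marks equal ranks.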

How the data were processed

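ATAC-seq peak lists of 6 SSPC libraries, 3 per age, were analysed. The authors converted base calls with bcl2fastq (1.8.4), aligned reads to mm10 with Bowtie2 (2.3.4.1), removed duplicates with Sambamba (0.6.7) and called peaks per library with MACS. A read shift for the transposase is not given in the sources used here, and it would move peak edges by a few bases. The deposited score restates the −log10 q in whole numbers, the fold enrichment they deposited is a linear ratio of summit pileup to local background, and the −log10 p and −log10 q deposited by the authors refer to the summit. Read numbers are not given. Fold enrichment and −log10 p were solved for the pileup and background under a Poisson model (100% of peaks), and the lowest background of a list served as its relative depth. Age differences by DiffBind need reads and were not repeated.

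TSSs came from GENCODE vM21 (mm10), with 21853 protein-coding genes for comparison. A gene's rank is that of its best overlapping peak. Means were compared by exact permutation of 6 libraries (20 assignments), within-library differences by exact sign permutation, and single genes by limma (3.58.1) over the 13025 genes of any type called in all libraries, with Benjamini-Hochberg adjustment. In simulated ranks of these 13025 genes, limma called 8.5% of 200 genes moved by 30 points. Python (3.11.15), pysam (0.24.0) and matplotlib (3.10.9) were used. The members, gene lists and markers were chosen with earlier results of these data known. Named genes are the 10 best-ranked recurrent members, per direction the 5 best-ranked age-limited and the 5 most shifted members without overlap, all listed members and the 5 best-ranked hosts of small RNAs. The alternatives were other windows, distances, thresholds, list lengths, scales and left-out libraries. No columns were left unmapped.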

Additional observations from a re-analysis of the deposited data

How the results depend on the processing

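Precision was limited by 3 libraries per age and by young 3, the shallowest library. With equally long lists, the difference in median rank of called lncRNA promoters was −2.51 in place of 1.33, and that of the 398 recurrent ones −2.13 in place of 8.23 (two-sided exact permutation p = 0.1 for both). Among shared genes the latter was −4.33. The counts limited to middle-aged and to young libraries were then 8 and 5, the lincRNA minus antisense difference 0.111 and the change in the share of the list 0.0676 percentage points. Shorter lists hold fewer weak peaks, and limiting lists to 1 length also removes any difference in peak number. When all libraries were instead thinned to the lowest background, that of young 3, the ratio of middle-aged to young shares of lncRNA genes called was 1.34. The ratio of list lengths was then 1.35. The cause of the difference between ages was not tested.

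The lincRNA minus antisense difference was −0.448 with windows of 500 bp, −1.07 with 2000 bp, −0.562 at least 10000 bp from a coding TSS, −0.592 with the 5′-most TSS and 0.964 without chromosomes X and Y. The change in the share of the list was −0.0531 with 500 bp, 0.0217 with 2000 bp and 0.0245 at a −log10 q of at least 5, a setting under which 1 gene was limited to young libraries. Promoters higher and lower without overlap numbered 11 and 53 among shared genes. By median-centred log2 fold enrichment they numbered 14 and 51 (3.52% and 12.8%, against 4.94% and 10.6% of all genes), by median-centred log2 summit height 10 and 61 (2.51% and 15.3%, against 5.53% and 7.65%), and with equally long lists 17 and 19 (5.45% and 6.09%, against 9.49% and 3.85%).

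Leaving out 1 library, the lncRNA minus coding difference ran from −46.5 to −45.7 percentage points and from −30.0 to −28.4 in median rank, where 5 libraries cannot go below an exact p of 0.0625. Genes limited to middle-aged libraries ran from 32 to 60 and to young libraries from 0 to 5, with no protein-coding share taken. Promoters higher without overlap ran from 113 to 174, with shares from 24.6% to 43.4% against 32.3% to 57.8% of all genes. Those lower ran from 8 to 24, with shares from 1.99% to 4.88% against 0.398% to 2.39%. The share of the list as a result, the counts without overlap, the log2 summit height and a distance to RefSeq mRNA starts were chosen after seeing the data. Of all alternative values, 330 kept their direction and their side of the threshold, or a count within 1.5 times, while 26 moved by more, 12 no longer passed the threshold, 4 newly passed it and 5 reversed. The exact permutation tests between ages cannot go below p = 0.1 and so never pass the threshold of 0.05. For these results only the direction could change, and their part of the tally is no measure of robustness. With 1 library left out, the exact sign permutation tests within libraries cannot go below p = 0.0625. A loss of the threshold in those settings was therefore fixed in advance and is no measure of robustness either.

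Deviations of same-numbered libraries correlated at 0.0264, −0.0126 and −0.0609 over 13025 genes, so the ranks showed no pairing by number. Whether such libraries shared a preparation was not tested. With the replicate block the difference in the share of lncRNA genes called was again 2.59 percentage points (two-sided exact permutation p = 0.25, the lowest 3 pairs can reach), and limma again called 0 lncRNA promoters.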
